A study of Rattus norvegicus with 12 samples.

Results

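Glycolysis, lactate export and hypoxia genes were followed through rat brain tumours with and without EGFRvIII, a shortened epidermal growth factor receptor that signals without ligand. The group holds 39 genes chosen by function, with earlier results of these data known. They are glucose transporters, glycolytic enzymes in their order, lactate dehydrogenases and lactate transporters, pH regulators, and targets and regulators of the hypoxia-inducible factor HIF. By gene symbol 34 of them had a probe on the array, of 13337 genes with a symbol (36 probes of 22523), and 31 were detected on all 12 arrays and tested. Of the other 8 members, Hk1, Pgam1, Pdha1, Egln1 and Egln3 were matched to no probe, and Slc2a1, Pfkfb3 and Car12 were detected on too few arrays (2 each).

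The tumours came from 9L rat gliosarcoma cells transfected with the pcDNA3.1(+) plasmid and selected with zeocin. Cells carrying EGFRvIII formed 6 tumours and cells carrying the empty vector (EV) formed 6, each in the cortex of a separate untreated female Fischer rat aged 4 to 6 weeks, and tumours were removed 3 weeks after implantation. The labels name 1 line per group and do not say whether it is a single clone, so the rats measure the spread between tumours of 1 line, and EGFRvIII cannot be told apart from any other difference between the lines. RNA of each whole tumour was hybridised to an Illumina RatRef-12 bead array, which reads a gene's transcript as the brightness of 1 or more probes. Between 11720 and 12719 probes were detected per EV array and between 11182 and 12040 per EGFRvIII array, and the 75th percentile of the signal was 129 to 155 and 98.6 to 121. On 0 of 12 arrays was the probe for rat Egfr detected, which gives no check of the introduced receptor. Values below are log2 intensities after background correction and quantile normalization, changes are EGFRvIII minus EV ± SE, and a gene is called where limma's adjusted p, over 11695 genes, is under 0.05.

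In glycolysis a glucose molecule taken up by a transporter is phosphorylated by hexokinase, split into triose phosphates and oxidised to pyruvate. Lactate dehydrogenase turns pyruvate into lactate, which leaves the cell with a proton through monocarboxylate transporters, and pyruvate dehydrogenase instead sends pyruvate to the mitochondria. When oxygen is low, HIF escapes prolyl hydroxylation and degradation and induces many of these genes, and tumour cells, glioma included, often keep high glycolysis when oxygen is present.

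Most of the pathway was higher in EGFRvIII tumours, from hexokinase 2 down to lactate export. Of the 31 tested members 19 were higher, 1 was lower (Ddit4) and 11 were not called, where 11.1% of all genes tested were called higher and 10.4% lower. The 31 members were detected on all 12 arrays, while a gene tested needed detection on only 6, so these shares are of unlike sets. The median change of the tested members was 0.72, against 0.01 over all genes tested. Among 17 tested enzymes from hexokinase to lactate dehydrogenase, 11 were higher and 0 lower by limma. The 6 not called (Hk3, Pfkm, Aldoc, Eno2, Pkm and Ldhb) included all 3 tested enzymes with a change below 0. Pkm, read by a dim probe, was the 1 pyruvate kinase among the members, so that step has no call. For 14 of the 31 members every EGFRvIII tumour lay above every EV tumour, a pattern seen in 5.63% of all genes tested, and for 0 members every one lay below, against 5.49%. Both called and at least 2-fold higher were 10 members, against 2.57% of all genes, and 1 was called and at least 2-fold lower, against 1.72%. Hk3 was 2.32-fold higher but not called.

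**Figure D1:**
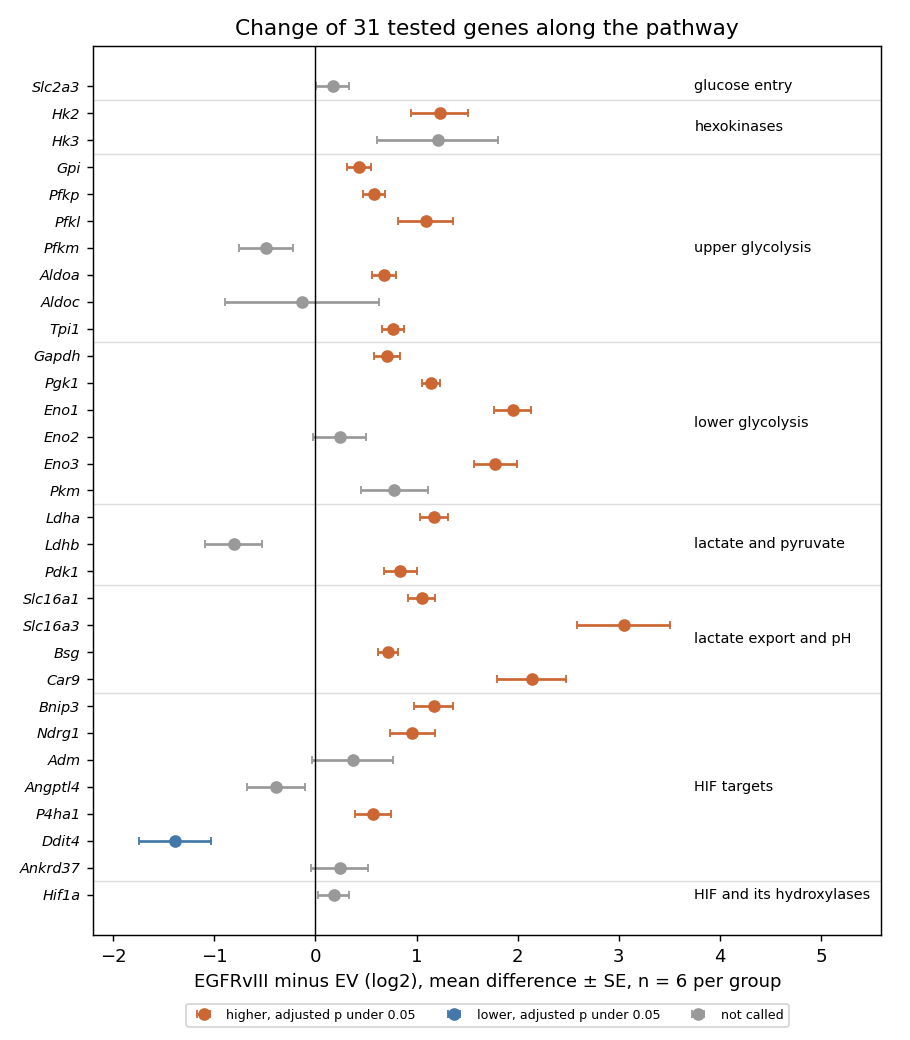
Change of each tested gene (EGFRvIII minus EV, log2, with SE, n = 6 per group) in pathway order, coloured by the call. Of the 31 genes 19 were higher, with Slc16a3 (3.05), Car9 (2.14) and Eno1 (1.95) farthest to the right, and Ddit4 (-1.39) was the 1 called lower.

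Because many members moved together, the promoters of the 3 with the largest called rise and of the 1 called lower are shown. These are the 250 bases before the annotated start, 5′ to 3′ on the gene's strand, from RefSeq on the GRCr8 build. Capitals mark ACGTG or GCGTG on either strand (the reverse strand reads CACGT or CACGC), the short core that HIF binds, and CACGTG would count on both strands.
Slc16a3, chr10:106712078-106712327, plus strand: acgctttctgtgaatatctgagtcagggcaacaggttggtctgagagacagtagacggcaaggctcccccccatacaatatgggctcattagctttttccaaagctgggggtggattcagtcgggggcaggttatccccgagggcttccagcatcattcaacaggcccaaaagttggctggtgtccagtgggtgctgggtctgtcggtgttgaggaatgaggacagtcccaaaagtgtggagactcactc
Car9, chr5:62558774-62559023, plus strand: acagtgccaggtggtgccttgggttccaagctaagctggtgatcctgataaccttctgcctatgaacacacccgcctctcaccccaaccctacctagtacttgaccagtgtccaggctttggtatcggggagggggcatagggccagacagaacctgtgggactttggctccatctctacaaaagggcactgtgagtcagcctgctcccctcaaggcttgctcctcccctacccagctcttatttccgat
Eno1, chr5:166002617-166002866, plus strand, the first of 2 entries: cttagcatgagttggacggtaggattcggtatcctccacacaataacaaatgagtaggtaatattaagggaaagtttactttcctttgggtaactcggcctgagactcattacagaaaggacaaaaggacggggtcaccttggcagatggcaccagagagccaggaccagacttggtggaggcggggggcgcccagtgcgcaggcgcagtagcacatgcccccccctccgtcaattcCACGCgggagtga
Ddit4, chr20:28437038-28437287, minus strand: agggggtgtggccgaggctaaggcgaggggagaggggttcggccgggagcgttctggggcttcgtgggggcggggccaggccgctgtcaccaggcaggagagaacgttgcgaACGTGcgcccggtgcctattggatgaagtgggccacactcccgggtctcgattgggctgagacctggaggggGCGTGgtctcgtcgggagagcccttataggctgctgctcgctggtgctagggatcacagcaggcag
The windows of Slc16a3 and Car9 hold neither string, that of Eno1 holds 1 GCGTG, and that of Ddit4, the gene that fell, holds 1 of each. Of 28 tested members with an entry, 19 (67.9%) hold at least 1 of the strings, against 37.9% of all 27457 genes with an entry. The share was 58.8% among 17 members called higher and 80.0% among 10 not called, and the difference was not tested. The 27457 genes were not limited to those on the array or detected, while the members were all detected, so these shares are of unlike sets. A match is a run of letters and not a binding site. Sequence outside the 250 bases was not searched, so a window without a match does not show that a gene lacks one.

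Entry of glucose gave no call. Slc2a3, the high-affinity glucose transporter of neurons, was at 5.74 ± 0.29 in EV and 5.91 ± 0.24 in EGFRvIII tumours (SD, n = 6 each, change 0.17 ± 0.16, adjusted p = 0.483). Slc2a1, the widespread transporter that is also abundant in brain endothelium, was detected on 0 of 6 EV and 2 of 6 EGFRvIII arrays and was not tested (4.49 ± 0.10 and 4.68 ± 0.19). A member this close to background has no usable fold.

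Hexokinase traps glucose in the cell. Hk2, the inducible form bound to mitochondria, had a lowest, median and highest value of 5.44, 6.34 and 6.84 in EV tumours and 6.80, 7.56 and 8.27 in EGFRvIII tumours. All but 1 EGFRvIII tumour (rat 2) lay above the highest EV tumour, and Hk2 rose 2.35-fold (1.23 ± 0.28, adjusted p = 0.00771). Hk3, the form of myeloid cells, ranged over 6.41 to 9.09 in EV and 7.44 to 9.96 in EGFRvIII tumours. Its change had nearly the size of that of Hk2 but a larger error (1.21 ± 0.60, adjusted p = 0.167). The 3 lowest EV values of Hk3 were in rats 3, 2 and 6 (6.41, 6.62 and 7.28), and its 2 lowest EGFRvIII values in rats 2 and 5 (7.44 and 7.83).

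These tumours were also low in macrophage and microglia markers. The summed normalized intensity of 10 such markers on the array was 1414 in EV rat 3, 4596 in rat 2 and 5095 in rat 6, against 6688 to 8938 in the other EV tumours. It was 5829 and 6577 in EGFRvIII rats 2 and 5, against 10194 to 12127 in the others. Of 9 tested markers 2 (Mrc1 and Trem2) were higher and 0 lower, against 11.1% and 10.4% of all genes tested. Their median change was 0.45, and 7 of the 9 changes lay above 0. The mean log2 of the 10 markers did not overlap, with 6.09 to 7.47 in EV and 7.49 to 8.8 in EGFRvIII tumours. Of 6 neutrophil markers Cxcr2, Elane and S100a9 were detected on 0 of 12 arrays, 1 of 2 tested was higher, and the summed level was 134 to 153 in EV and 155 to 343 in EGFRvIII tumours. In EV tumours these probes lay near background (mean log2 4.46 to 4.61). The part of these cells in the changes of the members was not tested. In whole tumours, more cells of a type and more RNA per cell cannot be told apart.

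In the upper steps of glycolysis Gpi, which makes fructose 6-phosphate, went from 12.05 ± 0.07 to 12.48 ± 0.29 (0.43 ± 0.12, adjusted p = 0.0175). Without EV rats 2 and 3 together its adjusted p was 0.0555, within a range of 8.1e-04 to 0.0715 over all alternatives. Phosphofructokinase, the committed step, is built from 3 isoforms. The platelet form Pfkp rose in all 6 EGFRvIII tumours above all EV tumours (9.31 to 9.95 against 10.11 to 10.33, 0.58 ± 0.11, adjusted p = 0.00294). The liver form Pfkl had a lowest, median and highest value of 6.62, 7.07 and 7.30 in EV and 7.19, 8.01 and 9.01 in EGFRvIII tumours. EGFRvIII rat 6 was the 1 that overlapped the EV tumours and rat 1 the highest, and Pfkl rose 2.13-fold (1.09 ± 0.27, adjusted p = 0.0105). The muscle form Pfkm, also abundant in brain, was not called (7.89 ± 0.57 and 7.41 ± 0.44, -0.49 ± 0.27, adjusted p = 0.215). Pfkfb3, which makes the activator fructose 2,6-bisphosphate, was detected on 1 array of each group and was not tested.

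Aldolase A, which splits the 6-carbon sugar in most tissues, was read by 2 probes that agreed in direction, with all EGFRvIII above all EV tumours for each. The brighter probe changed by 0.68 ± 0.12 (adjusted p = 0.00132) and the other by 0.89 ± 0.11 (adjusted p = 1.2e-04). Aldoc, the brain form of astrocytes and Purkinje cells, had a lowest, median and highest value of 6.07, 7.48 and 11.66 in EV and 6.86, 7.75 and 9.58 in EGFRvIII tumours. Its highest values were in EV rat 2 and EGFRvIII rat 1, and it was not called (-0.13 ± 0.76, adjusted p = 0.923). Its change was 0.60 without EV rat 2 and 0.08 without EGFRvIII rat 2, so its sign rests on single tumours. Tpi1, which interconverts the triose phosphates, rose with no overlap (11.55 to 12.07 against 12.39 to 12.96, 0.77 ± 0.11, adjusted p = 3.5e-04).

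EV rat 2 and EGFRvIII rat 1, the tumours with the most Aldoc, were also the highest of their groups in brain markers. The summed level of 8 neuron markers was 7674 in EV rat 2 against 227 to 1679 in the other EV tumours, and 2082 in EGFRvIII rat 1 against 228 to 496 in the others. That of 5 astrocyte markers was 9399 against 781 to 3728, and 3966 against 876 to 1569. That of 5 oligodendrocyte markers was 3326 against 638 to 877, and 1466 against 435 to 712. Of the tested neuron, astrocyte and oligodendrocyte markers (6, 5 and 4) limma called 0, against 11.1% higher and 10.4% lower of all genes tested. Their median changes were -0.96, -0.73 and -0.51, and 1, 1 and 0 of them had a change above 0. Pfkm (8.96 and 8.19), Eno2 (10.38 and 10.10) and Pkm (7.42 and 7.48) were highest in these same tumours, EV rat 2 and EGFRvIII rat 1. Ldhb was highest in EV rat 2 (10.57) but in EGFRvIII rat 6 (9.48). The part of brain tissue in Aldoc and in these genes was not tested. Without EV rats 2 and 3 together 18 members were higher and 0 lower, and with EGFRvIII rat 1 left out as well 18 were higher and 1 lower.

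The lower steps of glycolysis, which yield ATP, had a median change of 0.96 over 6 tested members, against 0.58 over 7 in the upper steps. Gapdh, often used as a reference gene, was at 11.22 to 11.79 in EV and 11.91 to 12.71 in EGFRvIII tumours and rose 1.63-fold (0.71 ± 0.13, adjusted p = 0.00237). Pgk1, the first ATP-forming enzyme, had a lowest, median and highest value of 11.65, 11.84 and 11.99 in EV and 12.74, 13.03 and 13.20 in EGFRvIII tumours. The groups lay apart by more than either group's own range, and Pgk1, at 2.20-fold, had the lowest adjusted p of the members (1.14 ± 0.09, adjusted p = 5.4e-06).

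Enolase makes phosphoenolpyruvate and has 3 isoforms. Eno1, the form of most tissues, had a lowest, median and highest value of 5.76, 6.32 and 6.73 in EV and 8.07, 8.20 and 8.88 in EGFRvIII tumours. The groups did not overlap, and EGFRvIII rat 6 stood above the other 5, which lay between 8.07 and 8.28 (1.95 ± 0.18, adjusted p = 1.4e-05). The Eno1 probe was dim, with a signal before normalization of 52.1 to 99.8 in EV tumours, against 2192.6 to 4070.0 for Gapdh. In EV tumours Eno2 lay 2.91 above Eno1 on average. Whether the probe reads all of the Eno1 transcript was not tested. Eno3, the muscle form, went from 6.05, 6.95 and 7.16 to 8.05, 8.54 and 9.17 (lowest, median and highest), again without overlap (1.78 ± 0.21, adjusted p = 9.2e-05). EV rat 2 was the lowest and EGFRvIII rat 6 the highest tumour for both. Eno2, the neuronal form, was not called (9.25 ± 0.58 and 9.49 ± 0.41, 0.24 ± 0.26, adjusted p = 0.557).

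Of the skeletal muscle markers Myh4 and Mb were detected on 0 of 12 arrays and Acta1, Ckm and Tnni2 on 2, 4 and 5, and limma called 0 of 2 tested markers. The summed level of 7 was 6497 to 8690 in EV and 5143 to 8118 in EGFRvIII tumours. Their mean log2 was only 5.79 to 5.86 and 5.65 to 5.91, so few bright probes make most of the sum. It is no measure of muscle content. Pkm, pyruvate kinase, was not called (5.96 ± 0.84 and 6.74 ± 0.38, 0.78 ± 0.33, adjusted p = 0.116). Its probe was dim, with a signal before normalization of 16.1 to 181.1 in EV and 60.9 to 135.3 in EGFRvIII tumours. The highest EV value of Pkm was in rat 2 (7.42, the others 4.97 to 6.26). Without that tumour Pkm passed (1.07, adjusted p = 0.00736, range over alternatives 0.00736 to 0.220). Transcripts of Gapdh, Eno1, Ldha and other glycolytic enzymes have close copies in the genome, and probe sequences were not used here, so a contribution of copies was not tested.

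**Figure D2:**
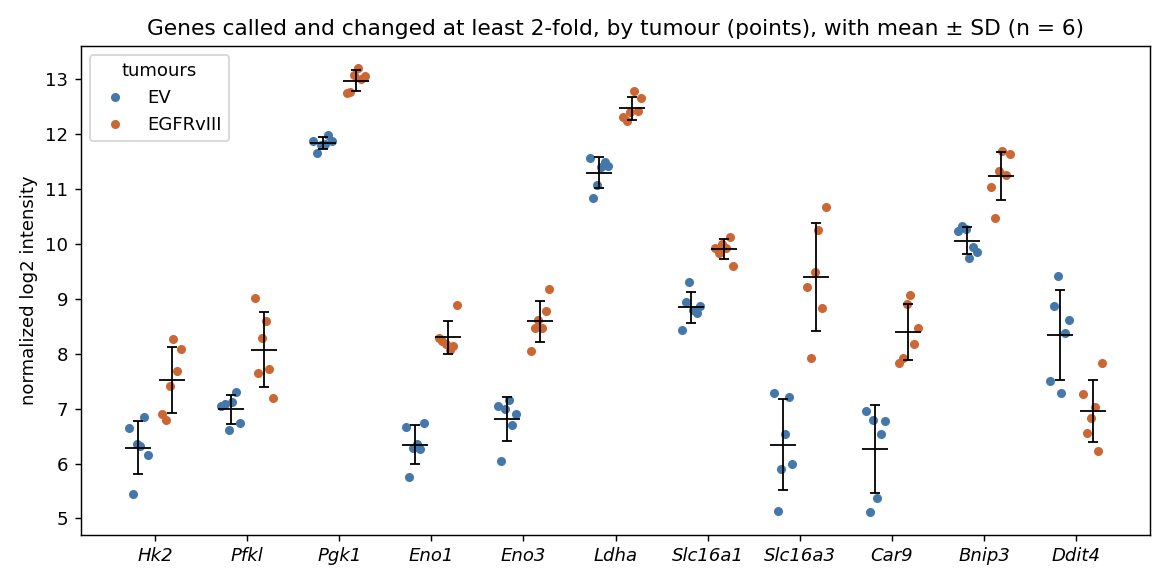
Normalized log2 intensity of the 11 members that were called and changed at least 2-fold, 1 point per tumour, with mean and SD (n = 6 per group). Of them Hk2, Pfkl and Ddit4 had groups that overlap, and the other 8 had every EGFRvIII tumour above every EV tumour.

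The lactate dehydrogenase isoforms parted. Ldha, whose subunit favours making lactate, had a lowest, median and highest value of 10.83, 11.41 and 11.56 in EV and 12.24, 12.41 and 12.79 in EGFRvIII tumours. All EGFRvIII tumours were above all EV tumours, and Ldha rose 2.26-fold (1.17 ± 0.14, adjusted p = 8.1e-05). Ldhb, whose subunit favours the return to pyruvate, was at 8.87, 9.46 and 10.57 in EV and 8.19, 8.74 and 9.48 in EGFRvIII tumours. The groups overlapped, 3 EGFRvIII tumours lay below all EV tumours, and Ldhb missed the threshold narrowly (-0.81 ± 0.28, adjusted p = 0.0519). It passed without EV rat 3 (-0.95, adjusted p = 0.0284) and without EGFRvIII rat 6 (-0.96, adjusted p = 0.0237), with 0.00875 to 0.112 over all alternatives. Pdk1, the kinase that switches off pyruvate dehydrogenase and is a HIF target, rose without overlap (9.13 to 9.52 against 9.67 to 10.55, 0.84 ± 0.16, adjusted p = 0.00241).

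All 4 tested members of lactate export and pH were higher, and none had groups that overlap. Of all genes tested, 11.1% were called higher and 5.63% were higher without overlap. Slc16a3, the transporter MCT4 of glycolytic cells, had a lowest, median and highest value of 5.14, 6.27 and 7.28 in EV and 7.92, 9.34 and 10.68 in EGFRvIII tumours. EV rat 2 was lowest and EGFRvIII rat 6 highest, the distance between the extremes within each group was large, and yet the groups stayed apart (3.05 ± 0.46, adjusted p = 5.4e-04). Among EGFRvIII tumours its order (rats 6, 4, 3, 1, 5, 2) was that of the macrophage marker sums, and EV rats 1, 4 and 5 were highest in both. EGFRvIII rats 2 and 5 had lower sums (5829 and 6577) than these EV rats (6688 to 8938) and more Slc16a3. By the mean log2 of the same markers the order was reversed, with 7.49 and 7.59 against 7.31 to 7.47. The part of macrophages in Slc16a3 was not tested. Slc16a1, the widespread transporter MCT1, was tighter, with 8.44, 8.83 and 9.30 in EV and 9.59, 9.93 and 10.13 in EGFRvIII tumours, and rose 2.07-fold (1.05 ± 0.13, adjusted p = 1.8e-04). Bsg, the chaperone basigin that carries both transporters to the membrane, rose 1.64-fold, with 8.27 to 8.72 in EV and 8.99 to 9.38 in EGFRvIII tumours (0.72 ± 0.10, adjusted p = 3.9e-04).

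Car9, a membrane carbonic anhydrase that handles extracellular acid and is a classical HIF target, had a lowest, median and highest value of 5.11, 6.66 and 6.95 in EV and 7.84, 8.32 and 9.07 in EGFRvIII tumours. EV rats 2 and 4 were low (5.11 and 5.38), and the other 4 EV tumours lay between 6.54 and 6.95. The change was 2.14 ± 0.34 (adjusted p = 8.2e-04), and it lay between 1.63 and 2.49 over all alternatives. Car12, a related carbonic anhydrase, was detected on 2 of 6 EV and 0 of 6 EGFRvIII arrays and was not tested.

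Isoforms at 1 step were compared by the log2 difference of both genes within each tumour, in the 7 of 12 chosen pairs with both members tested. Unequal change was tested by permuting group labels in every possible way, exact and two-sided (smallest possible p = 0.00216), adjusted over the 7 pairs. Ldhb minus Ldha fell from -1.73 ± 0.74 to -3.72 ± 0.57 (-1.99 ± 0.38, adjusted p = 0.00758), with no overlap between the groups. Eno2 minus Eno1, which rests on the dim probe of Eno1, fell by 1.71 ± 0.43 (adjusted p = 0.00758), also without overlap. EV rat 2 was the highest EV tumour in Ldhb and in Eno2. Without it the changes of these 2 pairs were -1.69 and -1.37 (adjusted p = 0.00758 each).

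Slc16a3 rose more than Slc16a1 by 2.00 ± 0.61 (adjusted p = 0.0189), although the groups overlapped and the call was lost without EV rats 2 and 3 together (1.45, adjusted p = 0.1, range over alternatives 0.0152 to 0.139). The change of Pfkp lay above that of Pfkm by 1.07 ± 0.29 (adjusted p = 0.0152, and 0.0778 without EV rats 2 and 3 together, where the difference was 0.76). Pfkp minus Pfkl did not pass (-0.51 ± 0.29, adjusted p = 0.176). Without EGFRvIII rat 6 it did (-0.66, adjusted p = 0.0333, range over alternatives 0.0333 to 0.537). Eno3 minus Eno1 (-0.17 ± 0.15, adjusted p = 0.374) and Aldoc minus Aldoa (-0.81 ± 0.85, adjusted p = 0.424) did not pass either, the latter with EV tumours spread from -5.23 to 0.30.

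**Figure D3:**
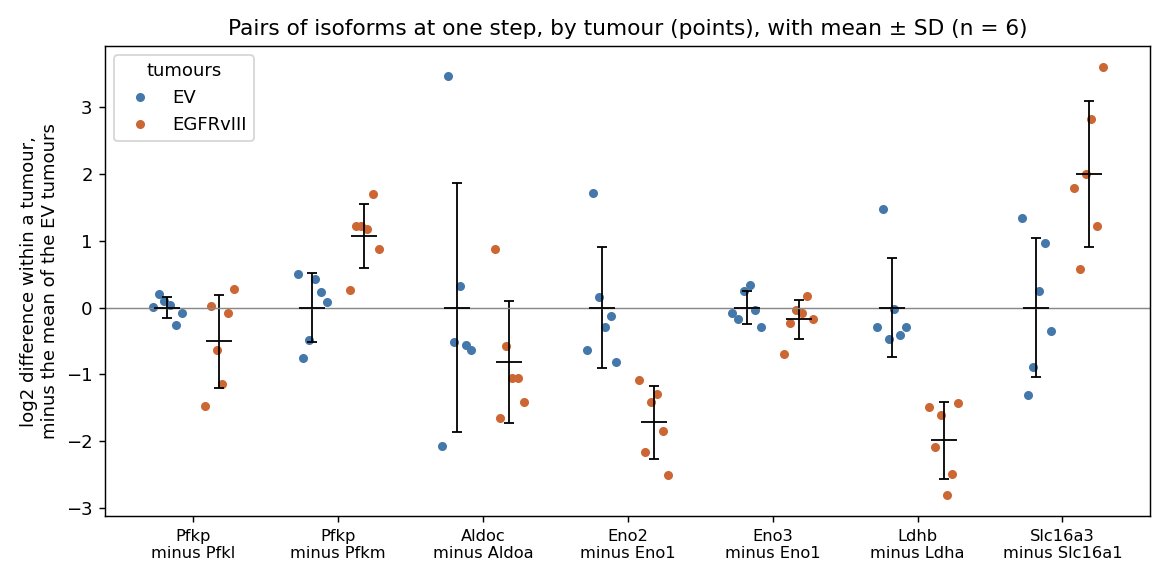
Log2 difference between 2 isoforms within each tumour, minus the mean of the EV tumours, with mean and SD (n = 6 per group). The groups are apart for Eno2 minus Eno1 and Ldhb minus Ldha, and overlap for the other 5 pairs.

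Besides Car9 and Pdk1, both higher and described above, 7 further HIF targets outside glycolysis were tested. Of these, 3 were higher, 1 lower and 3 without a call, where 11.1% of all genes tested were called higher and 10.4% lower. Bnip3, a mitophagy receptor, had a lowest, median and highest value of 9.74, 10.09 and 10.32 in EV and 10.48, 11.28 and 11.69 in EGFRvIII tumours, without overlap (1.17 ± 0.19, adjusted p = 7.9e-04). Ndrg1, a stress-induced cytoplasmic protein, rose 1.94-fold (0.96 ± 0.22, adjusted p = 0.00679) with 5 of 6 EGFRvIII tumours above all EV tumours. P4ha1, a collagen prolyl hydroxylase subunit, passed narrowly (0.57 ± 0.18, adjusted p = 0.0372). It did not pass when EV rat 2 or 6, or EGFRvIII rat 3, 4, 5 or 6, was left out (adjusted p 0.0603 to 0.0792, and 0.0184 to 0.126 over all alternatives).

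Ddit4, the mTORC1 inhibitor REDD1, went the other way, from 7.28, 8.5 and 9.42 in EV to 6.23, 6.93 and 7.84 in EGFRvIII tumours (lowest, median and highest). EGFRvIII rat 6 was the 1 tumour inside the EV range, and the highest EV values were in rats 3 and 2 (9.42 and 8.87). Ddit4 fell 2.61-fold (-1.39 ± 0.36, adjusted p = 0.0140). Without EV rats 2 and 3 together it did not pass (-0.99, adjusted p = 0.0602, range over alternatives 0.00537 to 0.0620). Adm, the vasodilator peptide adrenomedullin (0.37 ± 0.40), Ankrd37, an ankyrin repeat protein (0.24 ± 0.28), and Angptl4, an inhibitor of lipoprotein lipase (-0.39 ± 0.29), were not called (adjusted p = 0.545, 0.580 and 0.369). A second, dimmer probe of Angptl4, detected on 4 of 6 arrays in each group, changed by -0.01 ± 0.11.

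The EGFRvIII tumours differed among themselves in these targets. Adm was highest in rats 6, 4 and 3 (9.16, 8.67 and 8.14) and lowest in rat 1 (6.98). Ankrd37 was highest in rats 6, 3 and 4 (7.72, 7.23 and 7.13) and lowest in rat 1 (5.93). Slc16a3 was also highest in rats 6, 4 and 3 (10.68, 10.25 and 9.48), and lowest in rat 2 (7.92). Rats 2 and 5 were the 2 lowest EGFRvIII tumours in macrophage markers, as given above for Hk3. Hif1a, the regulated HIF subunit, was not called (9.76 ± 0.35 and 9.94 ± 0.15, 0.18 ± 0.15, adjusted p = 0.422). Its protein is mainly controlled by degradation, which arrays do not measure.

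**Figure D4:**
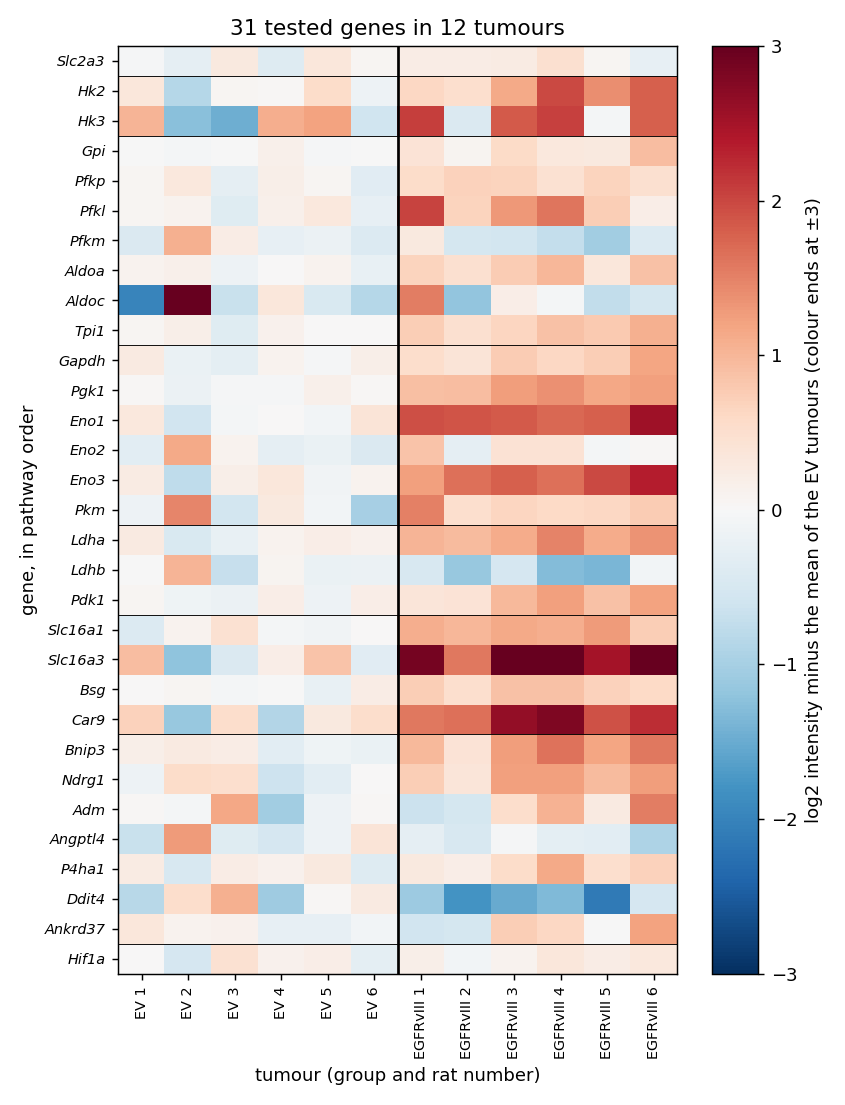
Log2 intensity of the 31 tested members in each of the 12 tumours, minus the mean of the EV tumours, in pathway order (the colour ends at 3 on either side). The median over members was -0.04 to 0.05 in the EV tumours and 0.42 to 0.99 in the EGFRvIII tumours, lowest in rat 2 and highest in rat 4.

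Of 84 tested genes in 7 lists of neighbouring pathways, 24 were higher and 3 lower, with a median change of 0.19, where 11.1% of all genes tested were called higher and 10.4% lower. With scaling to the median of all probes 14 were higher and 8 lower. In storage and release of glycogen, 2 of 6 tested were higher and 1 lower: Pygl, the liver glycogen phosphorylase that also serves myeloid cells, rose 4.86-fold (2.28 ± 0.34, adjusted p = 5.5e-04). Gbe1, the branching enzyme, rose (0.65 ± 0.14, adjusted p = 0.00451), and Pygb, the brain phosphorylase, fell (-0.73 ± 0.16, adjusted p = 0.00564), each of the 3 without overlap. Of 11 other genes of sugar entry and glycolysis, 2 were higher and 0 lower, with a median change of -0.05 and 5 of 11 above 0. The 2 higher were Pfkfb1, a bifunctional enzyme of fructose 2,6-bisphosphate (1.13 ± 0.24, adjusted p = 0.00473), and the phosphoglucomutase Pgm1 (0.54 ± 0.12, adjusted p = 0.00531, and 0.0865 with scaling to the median of all probes, the highest of its alternatives). Of 4 pentose phosphate genes Taldo1, transaldolase, was the 1 higher (0.44 ± 0.11, adjusted p = 0.0132). Its adjusted p was 0.0565 without EV rats 2 and 3 together, within 0.00329 to 0.0659 over all alternatives.

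For entry of pyruvate into mitochondria and the citric acid cycle, 5 of 26 tested were higher and 1 lower (median 0.15). Idh2, the mitochondrial isocitrate dehydrogenase, rose 2.01-fold without overlap (1.01 ± 0.13, adjusted p = 1.8e-04). Pdk2, another pyruvate dehydrogenase kinase, fell without overlap (-0.97 ± 0.19, adjusted p = 0.00297), opposite to Pdk1. Sdhb, a subunit of succinate dehydrogenase, passed narrowly (0.47 ± 0.15, adjusted p = 0.0410). It did not pass when EV rat 2, 4 or 6, or any of EGFRvIII rats 2 to 6, was left out (adjusted p 0.0511 to 0.0812, and 0.0113 to 0.0812 over all alternatives). Of 7 tested pH and monocarboxylate transport genes 2 were higher and 0 lower. Slc4a7, a sodium bicarbonate cotransporter, rose (0.71 ± 0.15, adjusted p = 0.00447). Emb, embigin, the second chaperone of monocarboxylate transporters, rose narrowly (0.98 ± 0.29, adjusted p = 0.0261). It did not pass when EV rat 1, 4 or 6, or EGFRvIII rat 1 or 4, was left out (adjusted p 0.0506 to 0.0554, and 0.0107 to 0.0875 over all alternatives).

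Of 8 tested HIF regulators 2 were higher and 1 was lower, where 11.1% of all genes tested were called higher and 10.4% lower. Their median change was -0.25, and 2 of the 8 had a change above 0. Cited2, a competitor for the HIF coactivator, rose (0.63 ± 0.15, adjusted p = 0.00814, and 0.0701 with scaling to the median of all probes, the highest of its alternatives). Hif1an, the asparagine hydroxylase that blocks HIF activity, passed (0.66 ± 0.20, adjusted p = 0.0349). It did not when EV rat 3 or 6, or EGFRvIII rat 2, 4 or 5, was left out (adjusted p 0.0605 to 0.0760, and 0.0215 to 0.112 over all alternatives). Epas1, the HIF-2 alpha subunit, abundant in endothelium, passed as lower (-0.70 ± 0.21, adjusted p = 0.0289). It did not when EV rat 5, or EGFRvIII rat 3 or 4, was left out (adjusted p 0.0513 to 0.0605, and 0.0152 to 0.0972 over all alternatives). Endothelial markers were lower as well, 4 of 5 tested (Cldn5, Emcn, Slco1c1 and Tek) with 0 higher, against 10.4% of all genes tested called lower. Their summed level was 1851 to 4079 in EV and 686 to 1740 in EGFRvIII tumours. Their part in the values of Epas1 and Slc2a1 was not tested.

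Of 22 other hypoxia-induced genes tested, 10 were higher, 0 were lower and 12 were not called (median 0.35). Mif, a cytokine, rose 2.70-fold without overlap (9.53 to 10.68 against 11.37 to 12.13, 1.43 ± 0.18, adjusted p = 1.7e-04). Hmox1, heme oxygenase, rose 2.96-fold, also without overlap (1.56 ± 0.31, adjusted p = 0.00301). Ak4, a mitochondrial adenylate kinase, rose 2.69-fold with overlap (1.43 ± 0.39, adjusted p = 0.0201). Markers of T and NK cells, red blood cells and proliferation gave 0 calls by limma among 6, 2 and 2 tested. Their summed levels in EV and EGFRvIII tumours were 225 to 5751 and 351 to 5149, 610 to 5513 and 789 to 7791, and 1736 to 3564 and 3116 to 3594.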

How the data were processed

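The authors deposited an average signal intensity and a detection score for each probe and array. Some intensities lie below 0, which background subtraction gives, and the score, high for bright probes, was read as 1 minus a detection p. A value table deposited by the authors was read, from its values, as log2 after quantile normalization. The submitters' processing notes name Partek, and its steps are not stated.

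Intensities were processed with neqc (limma 3.58.1, R 4.3.3, offset 16). The 11862 probes detected (p under 0.05) on 6 or more of 12 arrays were kept, the brightest standing for a gene (11695 genes, 8383 with a symbol). Of 22523 probes 13793 had 1 symbol, 0 had several and 8730 had none. The comparison used lmFit and eBayes (trend), two-sided, Benjamini-Hochberg over all genes, 10 residual degrees of freedom. Isoform pairs were tested by exact permutation. Summed marker levels add normalized intensities of 1 probe per gene. Members, lists, pairs and tests were chosen with earlier results of these data known. Named genes are all 39 members and up to 3 called genes with the largest change of each other list. The number of arrays limits precision. Rats numbered alike correlated at -0.34 to -0.06 after group means were removed, so the samples were treated as unpaired. The alternatives comprised other background, scaling, filter, probe and variance choices, the authors' log2 values, the rat number as a block, and arrays left out. The procedure was tested on simulated data. Figures used Python 3.11.15 and matplotlib 3.10.9.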

Additional observations from a re-analysis of the deposited data

Results flagged for a closer look

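In 11 of 120 groups of 6 tumours 1 tumour stood apart from the other 5, by a gap to its nearest neighbour above Dixon's critical share of the group's range, and chance gives about 1 in 20. EV rat 3 was low in Tpi1 (11.55, the others 11.91 to 12.07), Sdhb (9.81, the others 10.67 to 10.81) and Mif (9.53, the others 10.27 to 10.68). EV rat 2 was high in Eno2 (10.38, the others 8.82 to 9.35) and in Ldhb minus Ldha (-0.26, the others -2.2 to -1.75). EV rat 4 was high in Gpi (12.19, the others 11.99 to 12.04) and EV rat 5 in Pfkfb3 (4.75, the others 4.30 to 4.41, near background). Among EGFRvIII tumours, rat 6 was high in Eno1 (8.88, the others 8.07 to 8.28) and Pfkfb3 (4.93, the others 4.27 to 4.51), and rat 1 was high in Pkm (7.48, the others 6.45 to 6.72) and low in Cited2 (8.14, the others 8.52 to 8.70).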

How the results depend on the processing

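Of 20 called members 17 kept their call and direction under all 24 alternatives, and the exceptions (Gpi, P4ha1 and Ddit4) are given above. Over 744 refits of the 31 members, 714 left call and direction as reported, 14 lost a call, 11 gained one and 5 changed the sign of Aldoc, which was not called. Aldoc was 0.17 with array weights, 0.60 without EV rat 2, 0.08 without EGFRvIII rat 2, 0.61 without EV rats 2 and 3 together and 0.28 with EGFRvIII rat 1 left out as well. The alternatives that leave out several tumours, scale on kept probes or test each probe alone were added after seeing the data.

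Scaling moved the balance of all genes: against 1299 higher and 1220 lower, scaling to the median of all probes gave 768 and 1799, and to the median of kept probes 2157 and 1005. The median change of all genes was then -0.08 and 0.11. The members, with 19 higher and 1 lower (median 0.72) in the main fit, had 18 and 2 (median 0.75) and 19 and 2 (median 0.94). The other pathway genes moved from 24 higher and 3 lower to 14 and 8 and to 29 and 2, so their balance depends on the scaling. The members called lower were 2 with array weights and with detection on all 12 arrays, and 0 without EV rats 2 and 3 together. Leaving out 1 tumour gave 1 to 2 members lower (2 without EV rat 3 or EGFRvIII rat 6) and 2 to 5 other pathway genes lower (5 without EGFRvIII rat 6). It gave -0.66 to -0.32 for Pfkp minus Pfkl and -0.52 to 0.60 for Aldoc.

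With the rat number as a replicate block, 19 members were higher and 1 lower, against 943 and 874 of all genes. Of the pairs, Pfkp minus Pfkm (1.07) had an adjusted p of 0.109, and Eno2 minus Eno1 (-1.71), Ldhb minus Ldha (-1.99) and Slc16a3 minus Slc16a1 (2.00) had 0.0729 by exact sign flips. Each of these 3 had an exact p = 0.0312, the smallest that 64 sign flips allow, and with 3 pairs at this floor the adjusted p could not be lower, so the loss says nothing of their stability. Of the other named genes Ak4 (adjusted p = 0.0619), Hif1an (0.0627), Sdhb (0.0693) and Emb (0.0875) lost their call with the block. Without EV rats 2 and 3 together Pfkp minus Pfkm was 0.76 and Slc16a3 minus Slc16a1 1.45, and with EGFRvIII rat 1 left out as well the latter was 1.49 (adjusted p = 0.139). Pairs were not run with array weights or without the trend. Signals near background limit Slc2a1, Pfkfb3 and Car12.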
